A study of Mus musculus with 8 samples.

Results

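The cytosolic ribosomal protein (RP) genes encode the protein components of the ribosome outside mitochondria. They were taken as the rows of the count table whose Ensembl identifier carried a protein-coding mouse symbol of the Rpl or Rps series, with Rplp0, Rplp1, Rplp2 and Rpsa, which gave 82 of 52636 genes. By their symbols alone, 51 of these were assigned to the large subunit and 31 to the small subunit, and they lay on 19 chromosomes. Some genes, such as Rps3a1, Rpl36al, Fau and Rack1, also encode ribosomal proteins but fall outside the naming rule and are described separately.

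The libraries came from a study of how hematopoietic progenitors that lack the chemokine receptor CXCR4 affect the bone marrow niche. Mesenchymal stem/progenitor cells (MSPCs), the stromal cells that supply stem cell factor and CXCL12 to blood-forming cells, were sorted from bone marrow as PDGFRα+ cells that expressed GFP from the SCF (Kitl) locus without CD45, Ter119 (both on blood cells), CD31 or CD144 (both on endothelium), and their polyadenylated RNA was sequenced. CTR mice carried Flk2-cre+ Cxcr4fl/+ and cKO mice carried Flk2-cre+ Cxcr4fl/fl, so CTR mice also carried Cre and a floxed allele. All mice were on the C57BL/6 background at an age of 6 weeks per the labels, and the sorting reporter required a Kitl-GFP allele in both groups. The methods of the study give an older age range for its mice, and the labels were followed here. Each group had 4 libraries labelled as biological replicates. The Flk2 promoter drives Cre in hematopoietic multipotent progenitors rather than in the sorted cells, so the counts of Cxcr4, which were between 0 and 19 per library, do not check the genotype labels.

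Ribosomal proteins assemble with ribosomal RNA in the nucleolus into a large subunit, which forms peptide bonds, and a small subunit, which decodes mRNA. Their mRNAs are short and abundant in most cells, and many begin with a run of pyrimidines at the cap, the 5′ terminal oligopyrimidine (TOP) motif, through which mTORC1 signalling adjusts their translation together. Because that control acts largely on translation, mRNA levels measured by sequencing do not report on it.

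Every library held between 31047344 and 38216877 counts. Markers of MSPCs summed to 52920 to 65840 CPM (counts scaled to the size of the library, adjusted by edgeR's TMM method). Leukocyte markers summed to 5.86 to 12.8 CPM and endothelial markers to 1.68 to 5.59 CPM (1 of 5 markers at 0 in every library). Erythroid markers summed to 59.9 to 236 CPM, neutrophil and progenitor markers to 21.9 to 119 CPM and macrophage markers to 9.85 to 31.3 CPM. Osteoblast markers summed to 8084 to 14120 CPM, and most of this came from the gene Ibsp, which took 1.08% of all counts. The library CTR replicate 3 stood apart with 212 CPM of B and plasma cell markers, where the other libraries held between 0.259 and 5.15 CPM. The part of these other cells in the values below was not tested, and in bulk samples a smaller number of cells of a type cannot be told apart from less RNA per cell. The bracketed number in each library's title was between 67 and 86 for CTR replicates 1 and 3 and cKO replicates 1 and 3, and between 26 and 32 for the other 4 libraries. The labels do not say what this number stands for, and both genotypes had 2 libraries in each range.

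The TOP motif was looked for in the RefSeq promoter table (GRCm38.p6), which held 62 of the 82 genes. A run of at least 6 bases that opened with C and held only C and T, starting within 10 bases of an annotated start, was found in 34 of the 62 genes (54.8%), against 21.9% of all 27025 genes in the table. Sequences from 7 members with such a run are shown because they span the roles and levels described below. Rpl41, the member that varied most between libraries, is shown because the searched stretch around its annotated start held no such run. Each is 30 bases on the sense strand, 5′ to 3′, and capitals mark the run.
Rps6 (chr4:86857345-86857374, minus strand): gtcgggCCTCTTTTTCgtgacgcctcccag
Rpl38 (chr11:114668574-114668603, plus strand): ctcgttCTTTCCCCgttctcttcggttctc
Rpl28 (chr7:4792957-4792986, plus strand): tcgtgtCTCTCTTTCCgtctccggccgcca
Rpl14 (chr9:120571503-120571532, plus strand): ggcgggCCCTCTCTCTTCTCgctgagcgcc
Rps21 (chr2:180257371-180257400, plus strand): gacccgCCCTCCTgcccaatagtgctgcgg
Rps27 (chr3:90213627-90213656, minus strand): ctttcgCTCCTTTCCggcggtgacgacctc
Rps15a (chr7:118116124-118116153, minus strand): tgccatCTTCCCTCgccggtgagtgagtgt
Rpl41 (chr10:128549145-128549174, minus strand): cggctcggaagtgacgacaccgagcacgcc

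In the whole 300-base promoter windows, searched on both strands, the ETS core CCGGAAG stood in 40.3% of the 62 genes and in 9.93% of all genes. The SP1 site GGGCGG stood in 61.3% against 38.2%, and the YY1 site AAGATGGC in 9.68% against 3.19%. TATAAA was found in 11.3% of the RP genes and 15.7% of all genes, and the E-box CACGTG in 9.68% and 8.09%. These are matches of letters in a window. The median log2 fold change between genotypes was -0.02 in the 34 genes with a run and -0.03 in the 26 tested genes of the table without one.

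The first question was how much of the counts was taken by RP genes and whether that share differed between genotypes. RP mRNAs usually take a larger share of polyadenylated RNA libraries than the values here. Only reads assigned to the members were counted, and the setting for reads that match several places is not given in the sources used here. The shares therefore describe the count table, and how many RP reads it leaves out was not tested. RP genes took 0.583%, 0.574%, 0.603% and 0.4999% of counts in CTR replicates 1 to 4. In cKO replicates 1 to 4 the shares were 0.579%, 0.478%, 0.563% and 0.596%. The lowest libraries were cKO replicate 2 and CTR replicate 4, 1 of each genotype, and the ranges of the groups overlapped. The mean was 0.565% ± 0.045 (SD, n = 4) in CTR and 0.554% ± 0.053 (SD, n = 4) in cKO, and the difference of -0.011 percentage points was smaller than the SD of either group. It was -0.0325 without CTR replicate 4, 0.0146 without cKO replicate 2 and 0.0017 without CTR replicate 3, so its sign rested on single libraries. The 95% Wilson interval of each share was at most 0.0054 percentage points wide, which covers counting error only. Genes of the large subunit made up between 61.9% and 64.1% of the RP counts in every library.

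**Figure D1:**
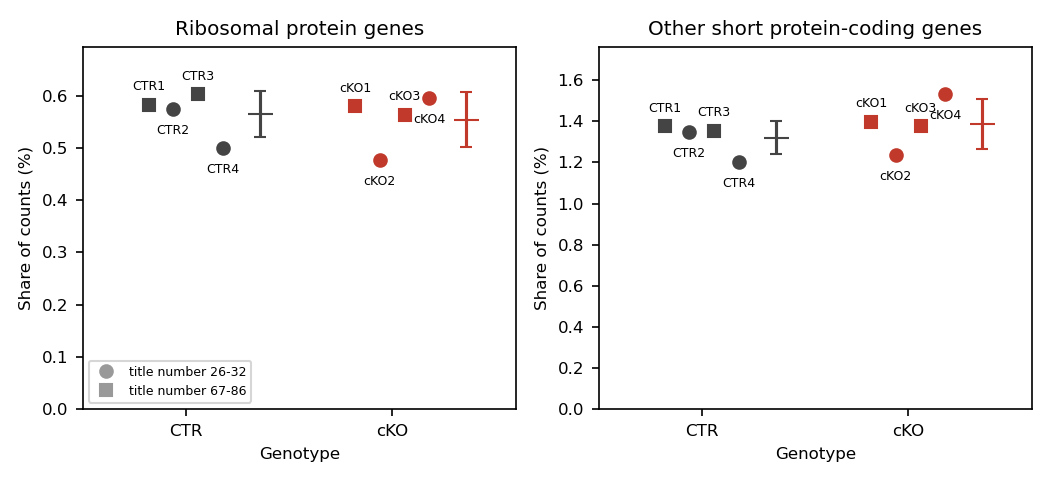
Share of all counts (%) in the 82 ribosomal protein genes and in 1889 other protein-coding genes with under 1 kb of exon, by genotype. Each point is 1 library (circles, title numbers 26 to 32; squares, 67 to 86), and the bar at the right of each group is its mean with the SD (n = 4). CTR replicate 4 and cKO replicate 2 are the lowest of their groups in both panels.

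The libraries that were low in RP genes were also low in other short transcripts. Other protein-coding genes with under 1 kb of merged exon took 1.20% of counts in CTR replicate 4 and 1.24% in cKO replicate 2, against 1.35% to 1.53% in the other 6 libraries. The part of transcript length or RNA quality in the RP share was not tested. The 37 genes of the mitochondrial genome took 0.530% in cKO replicate 2 and 0.545% in CTR replicate 4, and 0.534% to 0.653% in the other libraries. Annotated RP pseudogenes, 292 in the table, took 0.0096% to 0.0121% of counts. Most of that came from 1 gene, Rps4l, annotated as a transcribed processed pseudogene, which took 0.0073% to 0.0097%, and 95 of the pseudogenes had no count in any library.

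RP mRNA levels differed between members by more than between libraries. Per kilobase of merged exon, the highest mean levels included those of Rplp1 at 146 CPM per kb, Rpl36 at 139, Rplp0 at 137 and Rpl32 at 106. Rplp0 and Rplp1 belong to the acidic stalk of the large subunit that recruits elongation factors. The lowest levels of members with counts in every library were Rpl22 at 8.08, Rps15a at 5.90 and Rps24 at 5.34 CPM per kb, and the median was 32.0, so the range spanned 27.4-fold. The order depended on the length used. Divided by the median length of its coding transcripts instead, a scale added after seeing the data, Rpl13 was highest at 310 CPM per kb, Rps24 stood at 63.6, Rps15a at 57.9 and Rps20 was lowest at 11.2, with a Spearman correlation across the 80 genes of 0.75 between both scales. Only 3 members were among the 1000 protein-coding genes with the most CPM.

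RP genes have many near-identical copies in the genome, and reads that match several places are left out or split by counting. Of all 69-base windows in a member's annotated transcripts, the length of a read after trimming, a median of 19.3% also occurred in transcripts of another gene, from 0% to 78.9%. Rpl35 had 78.9% shared windows, Rpl23a 78.5% and Rpl36 72.7%. Rpl36 was also among the highest members per length, and across the 80 genes the share of shared windows and the level had a Spearman correlation of 0.38. Both measures are divided by the size of the annotated gene model, so length alone can give such a correlation. It does not show whether shared windows changed the levels. Levels of members with many shared windows are uncertain because of the sharing, and the search covered annotated transcripts, not the whole genome.

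Between genotypes, no RP gene passed the threshold. The comparison asked whether the MSPCs of mice whose progenitors lack CXCR4 changed their RP mRNA levels. With edgeR (quasi-likelihood F test, p-values adjusted by Benjamini-Hochberg across 14598 genes), 0 of 80 members (80 of the 82 passed the filter on counts) were past an adjusted p of 0.05, as were 0.0% of all genes (lowest adjusted p among members 0.999). At an unadjusted p under 0.05 there was 1 of 80 members, against 4.43% of all genes. DESeq2 also called 0 of 80 members, by the Wald test and by a likelihood ratio test with the title number range as a term, where it called 23 and 47 of all genes.

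Differences between genotypes were small and mostly slightly negative. The median log2 fold change (cKO against CTR) of the 80 members was -0.02, against -0.0013 in all genes. A total of 54 members lay below 0 (67.5%), against 50.2% of all genes. Leaving out cKO replicate 2 turned the median to 0.04, and leaving out CTR replicate 3 turned it to 0.0079, so its sign rested on single libraries. The median size of the change, whatever its sign, was 0.05 in members and 0.14 in all genes. No member reached a log2 fold change of 0.5 in either direction, against 11.0% of all genes, and no member had groups that did not overlap, against 2.62%. Members were also measured more precisely, with a median SE of 0.12 against 0.22 in all genes, so these sizes are not compared on equal terms. Both subunits were alike, with medians of -0.03 over 49 large-subunit genes and -0.02 over 31 small-subunit genes.

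The replicates set how large a change could have been missed. The 95% interval of the log2 fold change lay within 0.5 of 0 for 71 of the 80 members and within 1 for 79, with Rpl41 as the exception. Other members whose interval passed 0.5 included Rplp1, Rps21, Rpl29, Rpl36a, Rps20, Rps12 and Rpl22. A narrower limit of 0.25 held the intervals of 4 members, so changes of that size were not detectable in most.

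**Figure D2:**
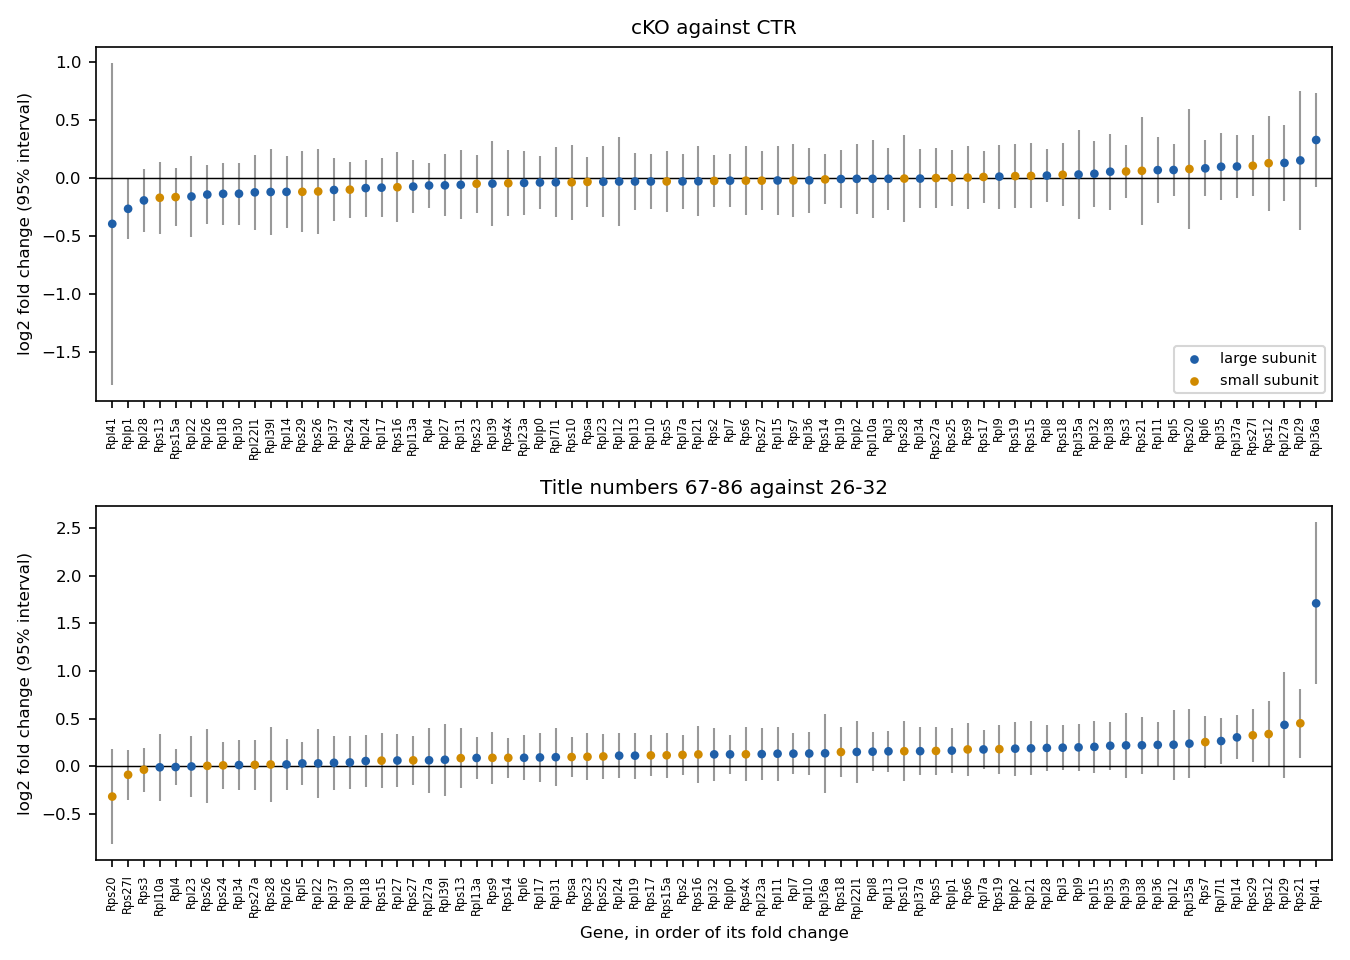
log2 fold change of 77 of the 80 tested ribosomal protein genes with its 95% interval, cKO against CTR (top) and libraries with title numbers 67 to 86 against 26 to 32 (bottom), each ordered by fold change and coloured by subunit. In the top panel the values lie between -0.40 and 0.33, and in the bottom panel most lie above 0 with Rpl41 at 1.71.

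Among genes of the ribosomal stalk, Rplp1 had 79.2, 86.4, 83.8 and 68.98 CPM in CTR replicates 1 to 4. In cKO replicates 1 to 4 it had 74.5, 57.6, 69.7 and 63.1 CPM. The cKO values were lower on average, but cKO replicates 1 and 3 lay above CTR replicate 4. Its log2 fold change was -0.27 (SE 0.12, unadjusted p = 0.0442, adjusted p = 0.999), the only unadjusted p under 0.05 among the members. Rplp0, which anchors the stalk, had a log2 fold change of -0.04 (SE 0.10), and Rplp2, the partner of Rplp1, of -0.0062 (SE 0.14).

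In the large subunit, the most positive value belonged to Rpl36a. It had 471, 562, 551 and 448 counts in CTR replicates 1 to 4 and 689, 544, 625 and 827 in cKO replicates 1 to 4. The cKO libraries were higher except that cKO replicate 2 lay below CTR replicates 2 and 3 (log2 fold change 0.33, SE 0.18, adjusted p = 0.999). Rpl29, which had 1182, 546, 758 and 733 counts in CTR and 717, 1093, 1123 and 824 in cKO, varied within both groups (0.15, SE 0.27). Leaving out CTR replicate 1 gave 0.45, and leaving out CTR replicate 2 gave 0.00093. Rpl27a was at 0.13 (SE 0.15), and Rpl28 at -0.19 (SE 0.12). Rpl5 and Rpl11, which with 5S rRNA bind MDM2 and stabilise p53 when assembly fails, were at 0.07 (SE 0.10) and 0.07 (SE 0.13). Rpl38, whose loss alters translation of Hox mRNAs in the mouse embryo, was at 0.06 (SE 0.15).

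In the small subunit, Rps13 had 57.1, 55.8, 54.6 and 41.2 CPM in CTR and 50.1, 41.4, 41.5 and 52.4 CPM in cKO replicates 1 to 4. It was low in CTR replicate 4 and in cKO replicates 2 and 3, so the groups overlapped, and its log2 fold change was -0.17 (SE 0.14, adjusted p = 0.999). Rps15a was at -0.16 (SE 0.11), while Rps12 was at 0.13 (SE 0.18), or 0.02 without cKO replicate 1. Rps6, the target of S6 kinase downstream of mTORC1, had 2236, 2362, 2861 and 2559 counts in CTR and 2230, 2198, 2879 and 2999 in cKO. The groups overlapped throughout (-0.02, SE 0.13). Rps14 and Rps19, whose human counterparts are linked to failure of red cell production when 1 copy is lost, were at -0.01 (SE 0.10) and 0.02 (SE 0.13). Rpsa, also known as the laminin receptor, was at -0.03 (SE 0.10), and Rps27a, made as a fusion with ubiquitin, at 0.00062 (SE 0.12). Rps24 was at -0.10 (SE 0.11).

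Within the title number ranges the genotype difference had no common direction. The median log2 difference of the members was 0.0029 within 26 to 32 and -0.06 within 67 to 86, and 34 of 80 members had the same sign in both, 22 lower and 12 higher in cKO. The difference between these 2 effects, tested as an interaction, was past the threshold for 0 of 80 members (0.0% of all genes, edgeR, adjusted as above), and 0 of 80 had an unadjusted p under 0.05 against 3.44% of all genes.

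The RP genes moved together within single libraries of either genotype. Of the 80 members, 51 had their lowest CPM in cKO replicate 2 and 21 in CTR replicate 4, and 27 had their highest in CTR replicate 3 and 18 in cKO replicate 4. Only 3 members were above their own mean in cKO replicate 2 and 7 in CTR replicate 4, while 73 were in CTR replicate 3. The median deviation from the member's own mean was -0.22 on the log2 scale in cKO replicate 2, -0.15 in CTR replicate 4 and 0.11 in CTR replicate 3. Over all genes the median deviations were 0.0032 to 0.0164. The scaling of CPM holds these near 0, so they do not show whether other genes moved. Osteoblast markers summed to 14120 CPM in cKO replicate 2, 11060 in CTR replicate 4, 8084 in CTR replicate 3 and 13690 in cKO replicate 4, so they were high in the library where RP genes were lowest, low in the one where they were highest, and also high in cKO replicate 4, where RP genes were high. Most of this marker sum came from the gene Ibsp, so it mainly follows that gene. Its part in the RP levels was not tested. In cKO replicate 2 and CTR replicate 4 most members thus sat below their own mean on this scale, and in CTR replicate 3 above it.

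**Figure D3:**
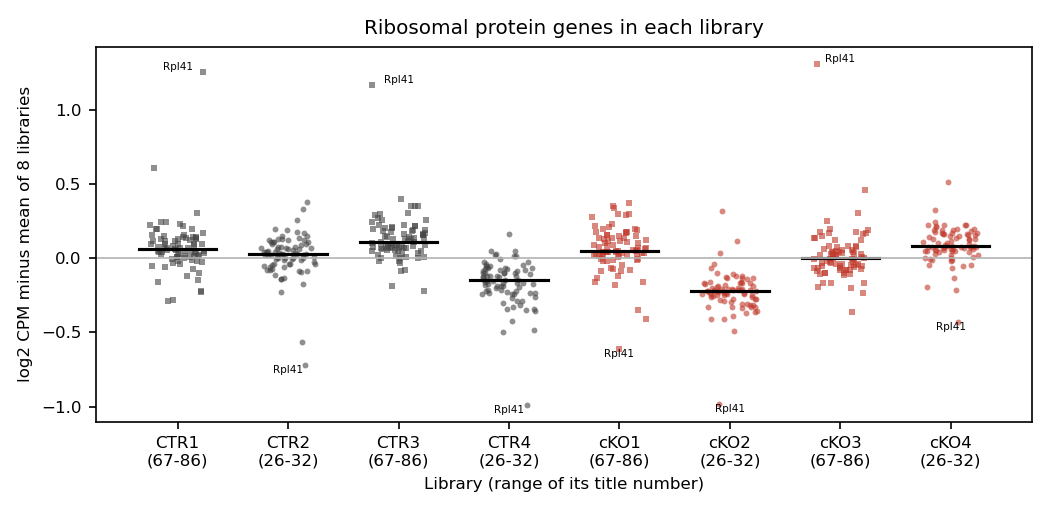
log2 CPM of each of the 80 tested ribosomal protein genes minus its mean over the 8 libraries, with a bar at the median of each library (grey, CTR; red, cKO; circles, title numbers 26 to 32; squares, 67 to 86). Medians run from -0.22 in cKO replicate 2 to 0.11 in CTR replicate 3, and Rpl41 lies apart from the other members in CTR replicates 1 and 3 and cKO replicate 3.

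Most members were steady around these shifts. The SD of log2 CPM over the 8 libraries had a median of 0.17 in the members, against 0.22 in 7869 genes of the same CPM range. Within that range the genes were not matched to the members in level, so the medians are not compared on equal terms. The highest library was under 2 times the lowest for 78 of the 80 members. An SD above 0.3 was seen in 3 of the 80 members and in 1948 of the 7869 genes. The 3 members were Rpl41 at 1.05, Rpl29 at 0.41 and Rps20 at 0.36. The steadiest were Rpl4, a core protein of the peptide exit tunnel, at 0.08 and Rps24 at 0.09.

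Rpl41 encodes the smallest ribosomal protein. The gene lies at chr10:128548114-128549305 on the minus strand (GRCm38). It had 3341, 885, 3264 and 839 counts in CTR replicates 1 to 4 and 953, 791, 3642 and 1278 counts in cKO replicates 1 to 4. The libraries CTR replicate 1, CTR replicate 3 and cKO replicate 3 thus stood at 101 to 112 CPM, and the other 5 at 22.4 to 33.2 CPM with none in between. The 3 high libraries all had title numbers from 67 to 86, but cKO replicate 1, in the same range, was low at 29.2 CPM. The log2 fold change between genotypes was -0.40 (SE 0.62, adjusted p = 0.999), with a 95% interval from -1.78 to 0.99. It was -0.03 without CTR replicate 1, -0.10 without CTR replicate 3 and -1.19 without cKO replicate 3, the high libraries.

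The neighbours of Rpl41 lacked its pattern. Zc3h10, which lies just downstream on the same strand, had 544 to 938 counts and was highest in cKO replicate 1. Pa2g4, upstream on that strand, had 1041 to 1624 counts. Gm29585, annotated as antisense and lying across from Zc3h10 on the other strand, had 253 to 405. The processed pseudogene Gm9176 next to it had no count in any library. By their coordinates none of these neighbours overlapped Rpl41. The counting mode is not given in the sources used here, so reads from where Gm29585 and Zc3h10 overlap cannot be assigned with certainty.

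Rpl29 and Rps20, the next most variable members, had other patterns. Rpl29 was highest in CTR replicate 1, cKO replicate 3 and cKO replicate 2, at 38.2, 34.5 and 31.2 CPM, against 16.7 to 23.5 CPM elsewhere. Rps20 had 33.3, 52.9, 34.8 and 41.2 CPM in CTR replicates 1 to 4 and 30.4, 32.7, 50.2 and 58.0 CPM in cKO replicates 1 to 4. It was highest in cKO replicate 4 and CTR replicate 2, where Rpl41 was low.

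**Figure D4:**
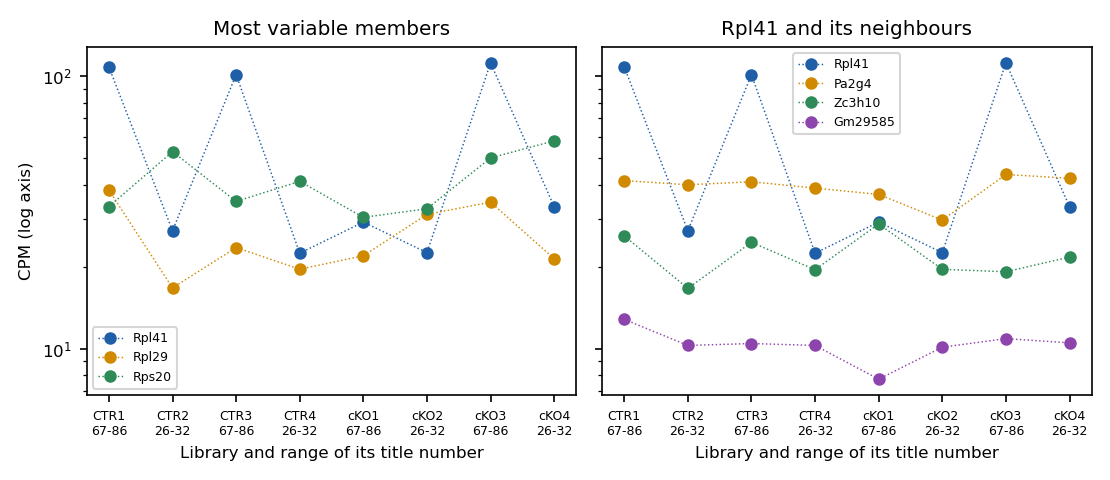
CPM (log axis) in each library of the 3 members with the largest SD (left) and of Rpl41 with 3 genes within 20 kb of it (right). Rpl41 stands at 101 to 112 CPM in CTR replicates 1 and 3 and cKO replicate 3 and at 22.4 to 33.2 CPM elsewhere, a split that Pa2g4, Zc3h10 and Gm29585 lack. Dotted lines only join the points of a gene.

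The title numbers were compared in the same way, with genotype as a covariate, since each range held as many CTR as cKO libraries. The RP share was 0.537% ± 0.057 (SD, n = 4) in the libraries with 26 to 32 and 0.582% ± 0.016 (SD, n = 4) in those with 67 to 86. The difference of 0.045 percentage points was smaller than the larger SD, and leaving out cKO replicate 2 gave 0.0253, while leaving out cKO replicate 4 gave 0.0646. The libraries CTR replicate 2 and cKO replicate 4, at 0.574% and 0.596%, lay among the libraries of the other range. Of the 80 members, 0 passed the adjusted threshold (0.0137% of all genes, 2 of 14598, edgeR, adjusted as above). The lowest adjusted p, 0.183, was that of Rpl41, with a log2 fold change of 1.71 (SE 0.38).

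The direction was shared by most members. A total of 73 of 80 were higher in the libraries with 67 to 86 (91.2%), against 49.0% of all genes, with a median log2 fold change of 0.12 against -0.0065. Leaving out each library in turn left the median between 0.07 and 0.19. Members moved together within libraries, so their number does not count separate observations. In the range 26 to 32, the median deviation of members was -0.22 in cKO replicate 2 and -0.15 in CTR replicate 4. It was 0.03 in CTR replicate 2 and 0.08 in cKO replicate 4, of the same range. At an unadjusted p under 0.05 there were 5 members, all higher (6.25%, against 5.1% of all genes called higher). Without cKO replicate 4 there were 18 such members. When libraries were instead scaled to their sum of RP counts, 1 of 80 had such a p. The share of all genes was not counted in either of these alternative fits, so neither count is set against a background. The 5 members in the main fit were Rpl41, Rps21 at 0.45 (SE 0.16), Rps29 at 0.32 (SE 0.12), Rpl14 at 0.30 (SE 0.10) and Rpl7l1 at 0.26 (SE 0.11). The lowest library of 67 to 86 was above the highest of 26 to 32 for 3 members (3.75%), Rpl36, Rpl14 and Rpl7a, against 3.43% of all genes. Rps20 at -0.32 (SE 0.22) and Rps27l at -0.09 (SE 0.12) were the most negative. Both values are within 2 SE of 0.

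Rpl41 was the 1 member whose call depended on the fit. A DESeq2 likelihood ratio test gave an adjusted p of 0.00017 for the title number range, and edgeR without cKO replicate 1 gave a log2 fold change of 2.05 with an adjusted p of 0.016. With all 8 libraries edgeR did not call it.

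Some ribosomal proteins have paralogs. By symbol, the members held 6 pairs of a gene and a copy named after it with l or l1. Whether a copy takes its partner's place in the ribosome was not tested. Rpl22l1 had 1167, 1164, 1121 and 939 counts in CTR and 1071, 1013, 954 and 1208 in cKO. Per length of merged exon, Rpl22l1 made up 60.9% to 73.6% of the pair with Rpl22, with means of 66.1% ± 5.6 in CTR and 66.9% ± 0.88 in cKO (SD, n = 4). It was the larger partner in all 8 libraries, and likewise per length of coding transcript at 80.2% to 87.9%. Rpl22l1 is known to rise when Rpl22 is lost, since RPL22 represses its mRNA. Here the log2 fold changes between genotypes were -0.12 (SE 0.15) for Rpl22l1 and -0.16 (SE 0.16) for Rpl22.

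Rpl39l, the paralog of Rpl39 studied in male germ cells, had 448 to 700 counts. It took 54.7% to 63.6% of its pair per merged exon and 38.8% to 47.8% per coding transcript, so which partner was higher depended on the length used. Rps27l, a p53 target, took 53.7% to 61.8% of its pair with Rps27, and 42.1% to 50.3% per coding transcript. Rpl7l1 took 41.2% to 45.9% of its pair with Rpl7, and 41.1% to 45.8% on the other scale. CTR and cKO overlapped in each of these pairs. Rps27l had a log2 fold change of 0.11 (SE 0.12), Rpl7l1 of -0.04 (SE 0.14) and Rpl39l of -0.12 (SE 0.17).

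The other copies were absent from the counts or nearly so. Rpl10l, the testis copy of Rpl10, had no count in any library, which allows up to 0.0966 CPM in the shallowest one. Rpl3l, the copy of Rpl3 in heart and skeletal muscle, had 2 counts in cKO replicate 2 and 0 in the other 7 libraries. These were the 2 members that did not enter the tests, which required a count in every library. Their partners were well covered, Rpl10 at 1985 to 2653 and Rpl3 at 4162 to 5400 counts.

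**Figure D5:**
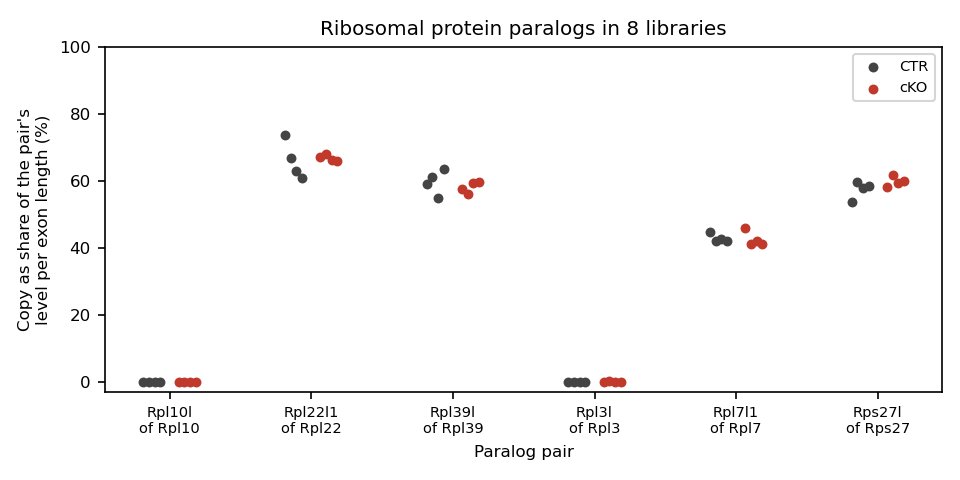
Share of each paralog pair's summed level per merged exon length (%) that came from the copy, with 1 point per library (grey, CTR; red, cKO; n = 4 each). Rpl22l1 lies between 60.9% and 73.6%, Rpl7l1 between 41.2% and 45.9%, and Rpl10l and Rpl3l at or near 0.

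Ribosomal proteins outside the naming rule also differed little between genotypes. None of the 5 genes passed the threshold, and their median log2 fold change between genotypes was -0.09. Rps3a1 had 5826, 5484, 5576 and 5827 counts in CTR and 5066, 4959, 5165 and 7267 in cKO (-0.09, SE 0.11). Rack1, the scaffold on the small subunit, was at -0.13 (SE 0.11), Fau at -0.09 (SE 0.13) and Rpl36al at -0.06 (SE 0.17).

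Genes that share the TOP motif or act around ribosome production also gave 0 calls between genotypes, in edgeR's quasi-likelihood test as above. Among 16 translation factors and other TOP genes, 6 lay above 0 and 10 below with a median of -0.01. Values in this list ran from -0.14 to 0.08. Eef1a1, the factor that delivers aminoacyl-tRNA, was at -0.02 (SE 0.09) and Eef2, which drives translocation, at 0.03 (SE 0.09), so neither was among the largest changes. The medians were 0.07 over 8 snoRNA host genes and 0.0032 over 19 genes of mTORC1 and RNA polymerase I control. Over 13 tested genes of the p53 response, which ribosome assembly defects can induce, 8 lay above 0 and 5 below, with a median of 0.04. Of 78 mitochondrial ribosomal proteins, which act in another organelle and serve here for contrast, 1 had an unadjusted p under 0.05, against 4.43% of all genes, and the median was 0.01.

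By title number range these lists gave 0 calls too. The median log2 fold change was 0.10 over the mitochondrial ribosomal proteins, of which 58 of 78 lay above 0, against 49.0% of all genes. Among these, 9 had an unadjusted p under 0.05 in either direction, against 11.6% of all genes. The median was 0.06 over the TOP genes and -0.29 over the snoRNA host genes, where 1 of 8 lay above 0. Over the 5 ribosomal proteins outside the naming rule the median was 0.03, with 3 above 0, against 0.12 in the members.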

How the data were processed

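Bulk RNA-seq counts of 8 libraries of sorted MSPCs were used, 4 per genotype, grouped by the genotype in the labels. The deposited values were raw read counts per gene, unnormalised. According to the methods, the authors trimmed 7 bases from the 5′ end of 76-base paired reads and 3′ ends to a quality of 20, aligned them to GRCm38 (mm10) with HISAT2 and made the counts with HTSeq-count and a GENCODE gene model. The multi-mapping setting is not given in the sources used here.

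Identifiers were matched to GENCODE vM21 symbols for 52403 of 52636 genes. Genes with a count in every library (14598) were fitted with edgeR 4.0.16 in R 4.3.3 (TMM scaling, glmQLFit and glmQLFTest, Benjamini-Hochberg adjustment, threshold 0.05). Title number range was compared with genotype as a covariate, and their interaction in a further fit. DESeq2 1.42.0 was an alternative. Shares are percent of a library's counts. Groups of 4 limit precision, and p-values set a difference against the spread between these mice, estimated with the help of all genes tested. Log2 CPM used a pseudocount of 0.5. Sequences came from RefSeq (GRCm38.p6).

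The members, lists and the rule for named genes were chosen with earlier results of these data known. Named genes were those with the highest and lowest level per length, those with the most positive and negative fold changes in each comparison, paralog pairs, members fixed by role, and ribosomal proteins outside the naming rule. Rpl4, Rpl13, Rpl35, Rpl23a, Rps29, Rpl14, Rpl7a and the neighbours of Rpl41 were added after their values were seen. Eef1a1 and Eef2 were also named outside that rule. Values of some single genes are not reported here.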

Additional observations from a re-analysis of the deposited data

Results flagged for a closer look

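Within each genotype, the RP share, the large-subunit share and the CPM of each named gene were searched for a library whose gap to the nearest other was above Dixon's 95% critical value for 4 samples as a part of the group's range. Of 80 groups of 4 libraries, 5 held such a library, and chance alone gives about 1 in 20.

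Rpl41 in cKO replicate 3 stood at 112 CPM, against 22.6 to 33.2 CPM in the other 3 cKO libraries. The remaining 4 were low values in the libraries with the lowest RP share. In cKO replicate 2, Rpsa stood at 85.0 CPM against 103 to 105 CPM in the other cKO libraries, and Rps15a at 31.5 CPM against 35.7 to 36.3 CPM. In CTR replicate 4, Rps13 stood at 41.2 CPM against 54.6 to 57.1 CPM, and Rps14 at 114 CPM against 124 to 125 CPM. No difference of the genotype effect between title number ranges passed its test for a member.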

How the results depend on the processing

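The main limits were 4 libraries per genotype and levels per length that depend on the gene model. Counts of called RP genes between genotypes (0) and of called genes of the comparison lists (0) held under the alternatives run, which were other scalings, filters, tools, a title number term and leaving out each library. Called interactions (0) held under other scalings, no filter and leaving out each library, the alternatives run for them. All genes called between genotypes rose from 0 to 23 with DESeq2's Wald test, 47 with its likelihood ratio test and 1 each with filterByExpr and with no filter. RP genes called by title number rose from 0 to 1 with DESeq2's likelihood ratio test, and ranged from 0 to 1 when leaving out single libraries (1 without cKO replicate 1). Calls over all genes by title number were not counted under these alternatives. Median fold changes and differences in RP share moved by less than the spread between replicates under the alternatives run. The level of the share moved more: without the 20 most-counted genes in the total it was 0.582% in cKO replicate 2 and 0.731% in CTR replicate 3. Without Rpl41, an alternative chosen after seeing the data, the share differed by -0.0093 percentage points between genotypes and by 0.039 between title number ranges.

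The replicate numbers were checked for pairing. The correlations of deviations between same-numbered libraries were 0.147, 0.194, 0.0925 and 0.0631, and the labels do not say what the replicate numbers share, so pairing was not taken as given. Libraries with the same replicate number lie in the same title number range. With a replicate block, 0 RP genes and 0 of all genes were called between genotypes, and the median log2 fold change of RP genes was -0.0252. With the replicate block Rps27a changed sign, to -0.0045.

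No single gene named was called between genotypes in any fit, and values close to 0 changed sign. Rps27a stood at -0.0024 with filterByExpr. Scaled to RP genes, the values turned positive for Rpl36 (0.0084), Rpl3 (0.0257), Rpl7 (0.0107), Rplp2 (0.0271), Rps6 (0.0063) and Rps14 (0.0135). Leaving out single libraries, log2 fold changes of 20 genes took both signs, with these ranges: Rpl36 -0.0846 to 0.0605, Rplp0 -0.0947 to 0.0182, Rpl32 -0.0237 to 0.139, Rps21 -0.0638 to 0.202, Rps20 -0.103 to 0.229, Rpl10 -0.0995 to 0.0423, Rpl39 -0.13 to 0.0396, Rpl3 -0.0809 to 0.0659, Rpl7l1 -0.125 to 0.0679, Rpl7 -0.0820 to 0.0432, Rps27 -0.0776 to 0.0657, Rplp2 -0.104 to 0.0591, Rpsa -0.0637 to 0.0334, Rps6 -0.116 to 0.0611, Rps14 -0.0521 to 0.0516, Rps19 -0.0493 to 0.101, Rpl11 -0.0043 to 0.147, Rpl38 -0.0443 to 0.138, Rps27a -0.0790 to 0.0490 and Rpl36al -0.179 to 0.0251. Values that kept their sign also moved by over 1.5 times when a library was left out, for example Rpl27a to 0.0178 without cKO replicate 1 and Rpl39l to -0.0161 without cKO replicate 2. The cause was not tested.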
